A study of Drosophila melanogaster with 4 samples.

Results

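The vacuolar ATPase (V-ATPase) genes of Drosophila melanogaster were followed in pupal eye discs, with and without overexpression of Yorkie (Yki), a growth-promoting coactivator held in check by the Hippo pathway. Members were all probe sets whose only platform gene symbol begins with Vha, and each gene was represented by its brightest probe set on average. This rule found 32 probe sets for 31 genes, of 11982 genes with a single symbol. The genes encode 13 subunits of the pump and the AC45 accessory protein. The RefSeq table lists 2 further genes with such names, Vha68-1 and Vha68-2, both for subunit A. Neither is the single symbol of a probe set in the platform annotation, so neither was analysed here.

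Yki discs came from animals of genotype GMR Gal4 crossed to UAS Yki (2 arrays), and control discs from GMR Gal4 animals (2 arrays). Both groups therefore carried the GMR driver, a source of the yeast activator Gal4 in eye cells, and in Yki discs the coactivator was raised where that driver is active. All animals were kept at 29 °C, and discs were dissected about 40 h after pupariation. Total RNA was hybridised to Affymetrix arrays. The replicates are called biological, but the number and sex of the pooled animals are not stated. The p-values set each difference against the spread between these samples, moderated over all probe sets, and not against a known spread between animals. RNA came from whole discs, where a change in cell composition and a change in RNA per cell cannot be told apart.

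The V-ATPase pumps protons across membranes by rotation. Its peripheral V1 sector hydrolyses ATP and turns a central shaft, and its membrane V0 sector carries a ring of proteolipid subunits through which protons pass. The pump acidifies endosomes, lysosomes, synaptic vesicles and pigment granules, and in Drosophila epithelia its loss disturbs endocytic trafficking and Notch signalling. Several subunits are encoded in the fly by a main gene and by duplicate genes, a number of which are known mainly from single tissues such as the testis.

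No V-ATPase transcript was called different between Yki and control discs by the test used, whose SE is moderated over all probe sets. None of the 31 genes passed an adjusted p of 0.05 over all probe sets (0 of 31, smallest adjusted p 0.408), and the background was 0.025% of all genes. At an unadjusted limma p under 0.05 the count was also 0 of 31, whereas 15.3% of all genes and 16.3% of genes with a mean intensity of at least 500 reached that p. The genes of bright probe sets all lay slightly on the higher side in Yki discs: the median of the 17 log2 differences was 0.26. Genes of dim probe sets had differences on both sides of 0. Differences are given as Yki minus control on the log2(intensity + 16) scale, on which differences of dim probe sets are compressed.

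By intensity the members fell into 2 sets with a wide gap between them. The 17 bright genes had means over the arrays of 707 to 9981, and the 14 dim genes had means of 22.6 to 140. VhaM9.7-c (mean 707) was the dimmest bright gene and Vha68-3 (mean 140) the brightest dim gene. The boundary of 500 was placed in this gap after the values were seen. Probe sets differ in their response to RNA, and detection calls were not used here, so the gap does not measure how much less RNA a dim gene had. Every subunit had a bright gene except A, for which Vha68-3 was the only gene analysed.

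**Figure D1:**
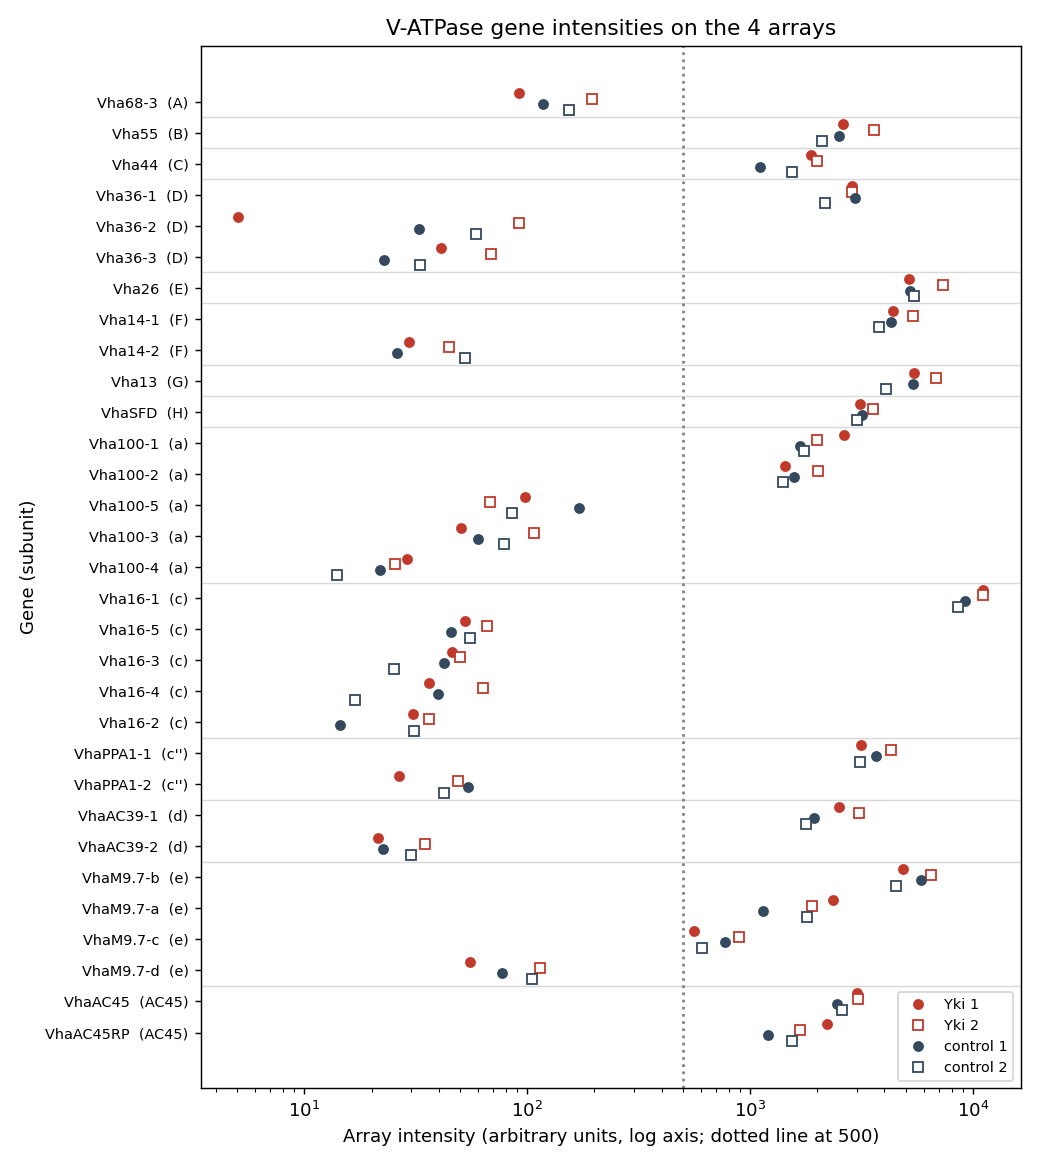
Intensity of each V-ATPase gene on the 4 arrays (log axis, arbitrary units), ordered by subunit, with Yki arrays in red and control arrays in dark blue, replicate 1 filled and replicate 2 open. The 17 bright genes lie to the right of the dotted line at 500 and the 14 dim genes to its left.

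In the V1 sector, Vha55 encodes subunit B, which forms the ATP-hydrolysing head together with the catalytic subunit A. Its intensity was 2619 and 3581 in Yki discs, against 2490 and 2102 in control discs. Both Yki arrays lay above both control arrays, the first of them narrowly, and the log2 difference was 0.42 (SE 0.27, 95% interval -0.28 to 1.11, adjusted p 0.583). Vha68-3, a duplicate gene for subunit A, measured 92.1 and 196 in Yki discs, against 118 and 155 in control discs. Here the Yki arrays stood on both sides of the control arrays, and the difference was 0.0014 (SE 0.39, adjusted p 0.999).

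The stator subunits hold the head in place against the turning shaft. Vha44, for subunit C, had intensities of 1864 and 1993 in Yki discs, against 1101 and 1536 in control discs. The groups did not overlap, and the difference of 0.56 (SE 0.27, 95% interval -0.12 to 1.25) was among the largest of the bright genes, with an adjusted p of 0.456. Vha26, for subunit E, measured 5137 and 7351 in Yki discs, against 5187 and 5446 in control discs, and only the second Yki array stood above the controls (difference 0.21, SE 0.27, adjusted p 0.81). Without that array the difference was -0.049. Vha13, for subunit G, had 5450 and 6782 in Yki discs, against 5395 and 4066 in control discs. Its groups did not overlap, but the lower Yki array lay close to the higher control array (difference 0.38, SE 0.27, adjusted p 0.623). VhaSFD, for the regulatory subunit H that keeps detached V1 from hydrolysing ATP, had 3103 and 3537 in Yki discs, against 3184 and 3009 in control discs. These groups overlapped, and its difference of 0.10 (SE 0.23, 95% interval -0.49 to 0.68) was the smallest among bright V1 genes.

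The shaft is built from subunits D and F. Vha36-1 (D) had 2869 and 2858 in Yki discs, against 2946 and 2154 in control discs. Both Yki values lay between the control values, so the difference of 0.18 (SE 0.26, adjusted p 0.825) depended on control replicate 2 and was -0.041 without it. Vha14-1 (F) had 4357 and 5351 in Yki discs, against 4300 and 3791 in control discs, with a difference of 0.26 (SE 0.24, adjusted p 0.719). The groups of Vha14-1 did not overlap, again by a small margin.

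In the V0 sector, subunit a carries the channels through which protons enter and leave the ring, and it directs the pump to particular membranes. Vha100-1, known for its role in neurons and photoreceptor terminals, had 2642 and 1993 in Yki discs, against 1680 and 1735 in control discs. Both Yki arrays were higher, the first of them clearly, and the difference was 0.42 (SE 0.25, 95% interval -0.23 to 1.07, adjusted p 0.55). Vha100-2, the other bright gene for subunit a, had 1433 and 2005 in Yki discs, against 1566 and 1400 in control discs. Its groups overlapped, with a difference of 0.19 (SE 0.27, adjusted p 0.822) that was -0.046 without Yki replicate 2. The dim Vha100-5 measured 97.6 and 67.8 in Yki discs, against 171 and 85.2 in control discs. Its difference of -0.50 (SE 0.38, 95% interval -1.47 to 0.48, adjusted p 0.644) was the lowest of all members, and most of it came from the high value of control replicate 1, without which it was -0.053.

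The proteolipid ring is built from subunits c and c''. Vha16-1 (c) gave the brightest member probe set, with 11099 and 11080 in Yki discs, against 9222 and 8524 in control discs. The groups did not overlap and the 2 Yki arrays were nearly equal (difference 0.32, SE 0.22, 95% interval -0.25 to 0.89, adjusted p 0.605). A second probe set for Vha16-1 had 3543 and 4987 in Yki discs, against 2392 and 3741 in control discs, where the groups overlapped (difference 0.49, SE 0.34). VhaPPA1-1 (c'') had 3144 and 4258 in Yki discs, against 3647 and 3108 in control discs. Its groups overlapped, and the difference of 0.12 (SE 0.27, adjusted p 0.903) became -0.098 without Yki replicate 2.

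VhaAC39-1 encodes subunit d, which joins the shaft to the ring. Its intensity was 2501 and 3065 in Yki discs, against 1939 and 1785 in control discs. The groups were well apart, and the difference of 0.57 (SE 0.24, 95% interval -0.05 to 1.19) was the largest among bright genes. It had the smallest p of all members, with an unadjusted p of 0.0634 and an adjusted p of 0.408.

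The small membrane subunit e had 3 bright genes. VhaM9.7-b measured 4859 and 6485 in Yki discs, against 5820 and 4509 in control discs. VhaM9.7-a had 2341 and 1896 in Yki discs, against 1142 and 1803 in control discs. VhaM9.7-c had 561 and 888 in Yki discs, against 771 and 608 in control discs. Of these 3, only VhaM9.7-a had groups that did not overlap, with a difference of 0.55 (SE 0.31, adjusted p 0.534). That difference turned on the controls, at 0.22 without control replicate 1 and 0.87 without control replicate 2. The other differences were 0.13 for VhaM9.7-b (SE 0.28, adjusted p 0.895) and 0.04 for VhaM9.7-c (SE 0.32, adjusted p 0.974), and both were below 0 without Yki replicate 2 (-0.076 and -0.28).

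Among the accessory genes, VhaAC45 encodes the membrane glycoprotein that associates with V0. It had 3001 and 3054 in Yki discs, against 2462 and 2589 in control discs. The replicates were close and the groups did not overlap, yet the moderated SE of 0.22 left the difference of 0.26 with an adjusted p of 0.681. VhaAC45RP, an AC45-related gene, had 2207 and 1667 in Yki discs, against 1195 and 1532 in control discs (difference 0.50, SE 0.28, adjusted p 0.519). Both Yki arrays were above both control arrays here as well.

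**Figure D2:**
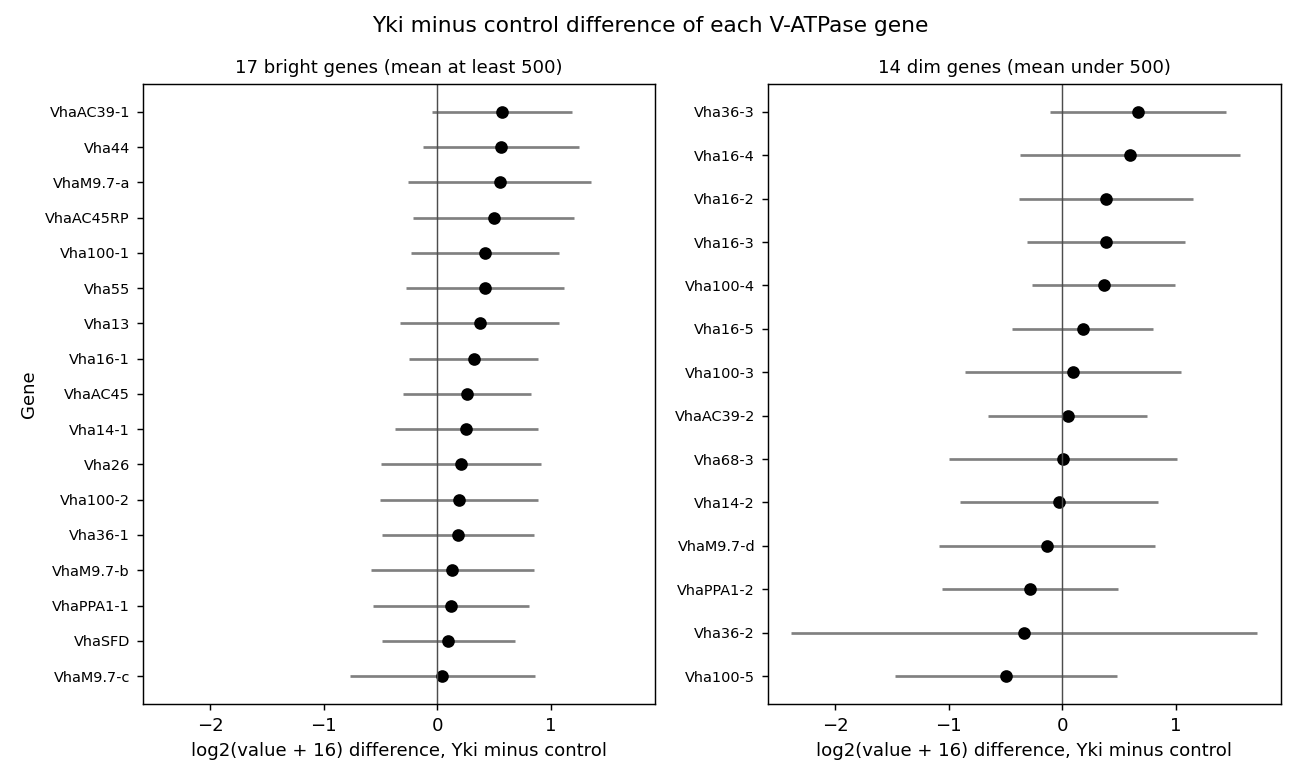
Log2(intensity + 16) difference, Yki minus control, for each V-ATPase gene (points) with its 95% limma interval (lines), bright genes on the left and dim genes on the right. All 17 bright genes lie above 0, from 0.04 to 0.57, the dim genes lie on both sides of 0, and every interval covers 0.

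With 2 arrays a group the intervals were wide, and for 17 of the 31 genes they reached beyond 1 log2 unit. Over all genes this was so for 7298 of 11982. For 10 of the 17 bright genes the 95% interval lay within 1 log2 unit of 0 on either side, as it did for 46.5% of all genes with a mean of at least 500, and the highest upper limit of any bright gene was 1.36 (VhaM9.7-a). An interval within 1 log2 unit was found for 4 of the 14 dim genes and for 2608 of 7522 genes with a mean under 500. The interval of Vha36-2, from -2.39 to 1.71, was the widest. An adjusted p above the threshold does not show that a gene was equal in both groups.

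The bright genes shared a direction. Of 17 differences, 17 were above 0, with quartiles of 0.18 and 0.42, whereas 44.4% of the 4460 genes with a mean of at least 500 were above 0 and their median was -0.07. The medians of the bright V1 and V0 genes were nearly equal, 0.26 over 7 genes and 0.26 over 8 genes. Both Yki arrays lay above both control arrays for 10 of the 17 bright genes and for 22.6% of all genes that bright. No bright member had both Yki arrays below both control arrays. Genes of one complex are not independent of each other, so these counts describe the genes and were not tested.

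The size of the shift depended on which arrays were set against each other. Yki replicate 2 was above both control arrays for 16 of 17 bright genes, and Yki replicate 1 for 10 of 17, where the shares over all genes that bright were 32.0% and 35.4%. The median difference of the bright genes was 0.02 for Yki replicate 1 minus control replicate 1, with 10 of 17 above 0. Against control replicate 2, Yki replicate 1 gave a median of 0.28 and 15 genes above 0. For Yki replicate 2 the median was 0.31 against control replicate 1, with 16 above 0, and 0.43 against control replicate 2, with 17 above 0. Over all genes that bright, the shares above 0 in these 4 pairs were 48.4%, 49.2%, 42.7% and 41.1%, in the same order. Without Yki replicate 2, 12 of 17 bright genes remained above 0 (median 0.19), and without control replicate 2 it was 14 of 17 (median 0.24). The shares over all genes that bright were 49.0% and 44.9%. All 17 stayed above 0 without either replicate 1.

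**Figure D3:**
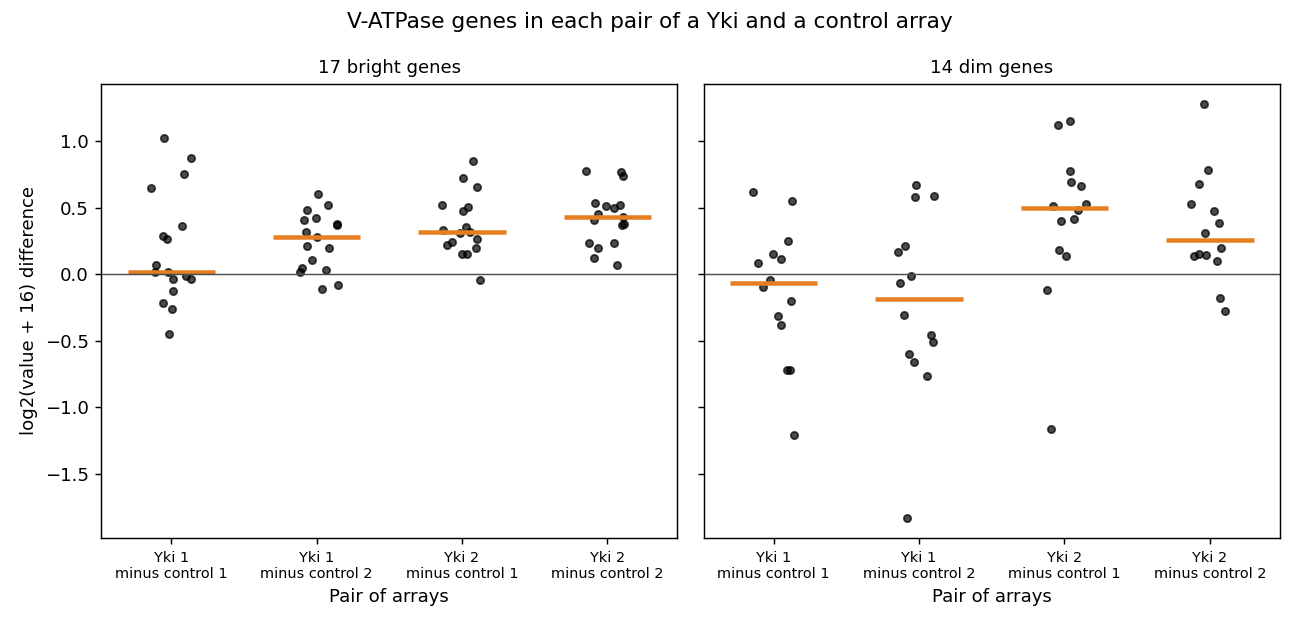
Log2(intensity + 16) differences of the 17 bright (left) and 14 dim (right) V-ATPase genes for each pair of 1 Yki and 1 control array, with 1 point per gene and the median as a bar. The bright median runs from 0.02 (Yki 1 minus control 1) to 0.43 (Yki 2 minus control 2), and the dim genes are below 0 for most genes with Yki 1 and above 0 for 12 of 14 with Yki 2. Of all genes with a mean under 500, 50.4% and 41.8% are above 0 with Yki 1 (against control 1 and control 2). With Yki 2 these shares are 60.4% and 52.6%.

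With the genes grouped by subunit instead, the brightest gene of each subunit (14 genes, Vha68-3 among them) had a median difference of 0.26, and the other 17 genes a median of 0.18. The paralogs were thus a mixture. Those of subunits a, e and AC45 included Vha100-2, VhaM9.7-a, VhaM9.7-c and VhaAC45RP, with the bright values given above, while all duplicates for subunits c, c'', d, D and F were dim.

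The 14 dim genes had intensities of 5.06 to 196 in Yki discs and 13.97 to 171 in control discs. Of these, 9 had a difference above 0 and 5 below, with a median of 0.07, and both Yki arrays lay above both control arrays for 3 of 14, against 22.4% of the genes with a mean under 500. Over the whole family the count was 13 of 31 against 22.5% of all genes. For subunit c, Vha16-2, Vha16-3, Vha16-4 and Vha16-5 had means of 28.1 to 54.9 and differences of 0.38, 0.38, 0.59 and 0.18. All 4 pointed the same way as Vha16-1, and none of their intervals excluded 0. Among duplicates for subunit a, Vha100-4, known for the acid-secreting cells of the Drosophila midgut, had a mean of 22.6 and a difference of 0.36 (adjusted p 0.599), and Vha100-3 had 73.8 and 0.09.

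The subunit D duplicates were picked out after their values were seen. Vha36-3 had 40.8 and 68.4 in Yki discs, against 22.8 and 33.2 in control discs, and its difference of 0.66 (SE 0.30, 95% interval -0.11 to 1.44, adjusted p 0.438) was the highest of all members. Vha36-2 had 5.06 and 92.0 in Yki discs, against 32.5 and 58.7 in control discs. The 2 Yki arrays of Vha36-2 were thus the lowest and the highest of the 4, which gave it the largest SE among members (0.80). The remaining dim genes were VhaPPA1-2 (difference -0.28), VhaM9.7-d (-0.14), Vha14-2 (-0.03) and VhaAC39-2 (0.05), with means of 27.2 to 87.7.

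Most dim genes were dimmer on Yki replicate 1 than on Yki replicate 2. Yki replicate 2 exceeded Yki replicate 1 for 12 of 14 dim genes, compared with 56.8% of all genes with a mean under 500. Summed over the dim genes, intensity was 613 and 1014 in Yki discs, against 748 and 783 in control discs. The sum over 18 testis marker genes was 3641 and 7742 in Yki discs, against 4940 and 6328 in control discs. Both sums were thus lowest on Yki replicate 1 and highest on Yki replicate 2. Over all genes with a mean under 500 the sum was also lowest on Yki replicate 1 (981937), but it was highest on control replicate 2 (1.11e+06). Yki replicate 2 exceeded Yki replicate 1 for 16 of 18 testis markers, and the median testis difference, Yki minus control, was 0.0006. The part of testis RNA in the dim V-ATPase values was not tested. Of the testis markers, 9 of 18 had a mean under 100, but 5 were above 500, among them Mst84Dc (1002) and betaTub85D (879). Among the meiotic arrest genes, can (26.2), aly (13.4) and nht (4.99) were dim, but mia had a mean of 230. These testis genes, apart from can, were picked for their level after the values were seen.

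Several duplicates lie beside or near another gene for the same subunit, according to the gene order in RefSeq. Vha100-2 (mean 1601) and Vha100-4 (22.6) are direct neighbours, and so are Vha16-3 (41.0) and Vha16-2 (28.1). VhaPPA1-1 (3539) and VhaPPA1-2 (43.1) have 1 protein-coding gene between them. Vha68-3 (140) is a direct neighbour of Vha68-2 and has 1 protein-coding gene between it and Vha68-1, neither of them analysed. Thus a bright and a dim member stood next to each other in the Vha100 pair, and 2 dim members in the Vha16 pair.

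The mitochondrial ATP synthase is the other proton-coupled rotary ATPase of the cell, and it runs in the direction of ATP synthesis. Its 16 measured genes had a median difference of 0.08, 11 were above 0, and none reached an unadjusted p under 0.05 or passed over all probe sets. ATPsynbeta, for the catalytic subunit, had 8682 and 8497 in Yki discs, against 7129 and 7087 in control discs (difference 0.27, SE 0.22, adjusted p 0.666). ATPsynepsilonL and sun, for the small epsilon subunit, were lower on both Yki arrays (differences -0.44 and -0.40, adjusted p 0.512 and 0.541). Whether the V-ATPase and ATP synthase genes differed from each other was not tested.

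Genes that act on the V-ATPase, or through it, showed no common direction. Of 16 listed genes for assembly factors, the Ragulator and Rag proteins that dock TOR kinase on the lysosome, and TOR inputs, 11 were analysed. None passed over all probe sets, 3 were lower in Yki discs at an unadjusted p under 0.05 and 0 were higher, and the median was -0.19. Over all genes, 8.07% were lower at that p and 7.19% higher. The 3 were path, an amino acid transporter gene, Mitf, the fly gene of the TFEB family that activates V-ATPase and lysosomal genes, and the Ragulator gene Lamtor5. path had 900 and 895 in Yki discs, against 2098 and 2575 in control discs (difference -1.36, SE 0.24, adjusted p 0.153). Mitf measured 128 and 101 in Yki discs, against 178 and 226 in control discs (difference -0.74, SE 0.26, adjusted p 0.343). Lamtor5 had 931 and 1058 in Yki discs, against 1526 and 1479 in control discs (difference -0.59, SE 0.23, adjusted p 0.374). These 3 were named for having the smallest p in the list, and for each the Yki arrays lay below the control arrays. That held for 5 of the 11 genes and for 3022 of all 11982 genes. Both Yki arrays lay above both control arrays for 3 of the 11 and for 22.5% of all genes. Of the 11 differences, 4 were above 0 and 7 below.

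Chloride channel and proton exchanger genes had a median of 0.26 over 8 genes, with 6 above 0 and 0 at an unadjusted p under 0.05. The closest to the threshold was ClC-a, with 225 and 197 in Yki discs, against 133 and 172 in control discs (difference 0.43, adjusted p 0.534). Nhe2 and Nha2 followed, both dim, with differences of 0.47 and 0.51. Of the genes listed for lysosomal hydrolases and membrane proteins, 28 were analysed, with a median of 0.07. These 28 include Manf (difference 0.06), which encodes neither. At an unadjusted p under 0.05, 2 were higher and 3 lower, a total of 5 of 28 beside 15.3% of all genes, and 0 passed over all probe sets. Their quartiles of -0.34 and 0.26 were close to those of all genes, -0.32 and 0.30. Ect3, a beta-galactosidase gene, had 1368 and 2344 in Yki discs, against 601 and 545 in control discs (difference 1.62, adjusted p 0.186). The palmitoyl-protein thioesterase gene Ppt1 (-1.17) and the alpha-mannosidase gene LManI (-1.18) were lower, each with an adjusted p near that value (0.188 and 0.189).

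**Figure D4:**
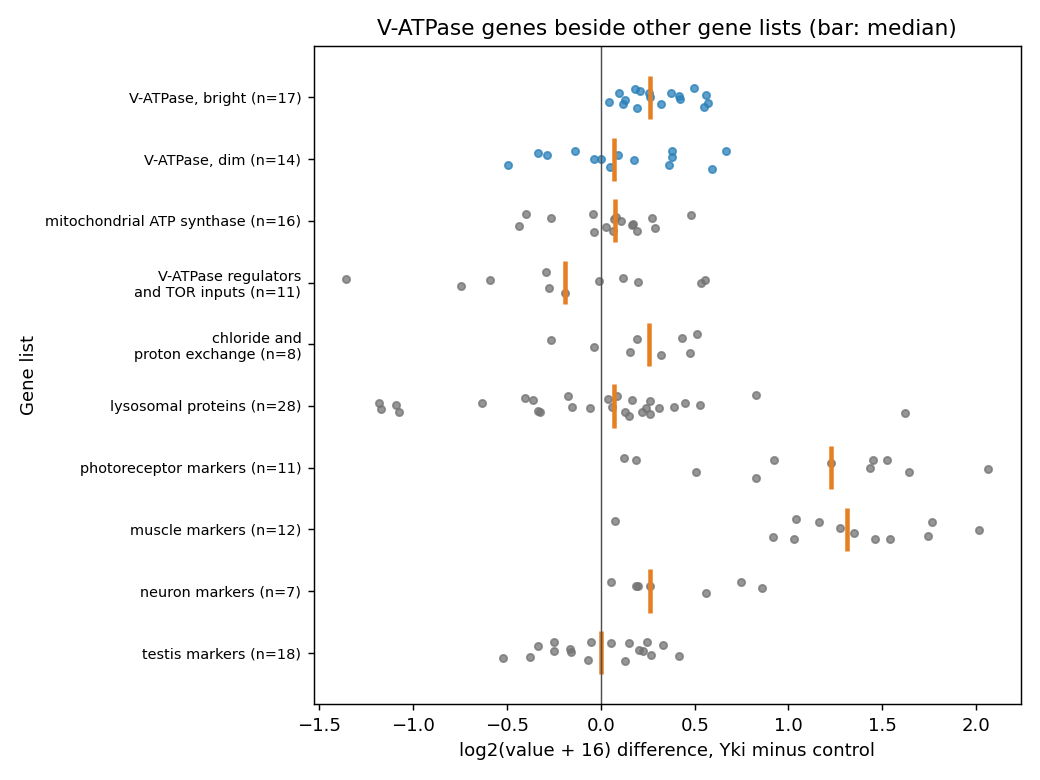
Log2(intensity + 16) difference, Yki minus control, of each gene (points) and the median (bars) for the V-ATPase genes, related gene lists and marker lists. The bright V-ATPase genes cluster around 0.26, and photoreceptor and muscle markers around 1.23 and 1.31.

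Among the marker lists, photoreceptor and muscle genes had the largest median differences. The Malpighian tubule median was also above the 0.26 of the bright pump genes, and the neuron median was level with it. The other lists did not share one direction. yki itself had 26417 and 26183 in Yki discs, against 1285 and 1261 in control discs. The listed photoreceptor markers summed to 41649 and 54346 in Yki discs, against 17951 and 23016 in control discs. Of these sums, 20071 and 25451 in Yki discs and 7797 and 6693 in control discs came from Pdh, which is not specific to photoreceptors. The median difference was 1.23 over 11 listed genes, 7 of which were higher at an unadjusted p under 0.05 (7.19% of all genes were). Among the 7 were trp (2.06, adjusted p 0.149), inaD (1.52, adjusted p 0.213) and Pdh (1.64, adjusted p 0.143). Muscle markers summed to 27891 and 47382 in Yki discs, against 11712 and 17724 in control discs, with a median of 1.31 over 12 genes and 8 higher at that p, beside the same 7.19%. No marker was at 0 and none passed over all probe sets. Bright V-ATPase genes summed to 59185 and 67843 in Yki discs, against 54047 and 49695 in control discs, so both Yki sums exceeded both control sums for all 3 groups of genes. Between the controls the order differed, since the V-ATPase sum was lower on control replicate 2 and both marker sums were higher there. All genes with a mean of at least 500 averaged 2133 and 2160 in Yki discs, against 2131 and 1977 in control discs, the same order of arrays as the V-ATPase sums. The part of photoreceptors or muscle in the V-ATPase values was not tested. Neuron markers summed to 9451 and 8309 in Yki discs, against 4645 and 9733 in control discs. Their median of 0.26 over 7 genes therefore turned on control replicate 1, and the differences between same-numbered arrays had medians of 1.14 for replicate 1 and -0.14 for replicate 2. Markers of the Malpighian tubule, a tissue rich in V-ATPase, were dim (8 genes, means of 10.5 to 148) and summed to 691 and 479 in Yki discs, against 399 and 400 in control discs. Their median was 0.50, with 6 of 8 above 0 and 2 higher at an unadjusted p under 0.05, List (adjusted p 0.282) and NaPi-T (adjusted p 0.311). The part of neurons or of tubule tissue in the V-ATPase values was not tested. For glia (7 genes), fat body (5), haemocytes (8) and trachea (2) the medians were 0.0092, -0.25, -0.11 and -0.64. The glia median hides changes in both directions, with 2 genes higher and 1 lower at an unadjusted p under 0.05. Higher were moody (6491 and 7650 in Yki discs, 2277 and 2699 in control discs, adjusted p 0.145) and axo (adjusted p 0.333). Lower was gcm (110 and 67.0 in Yki discs, 317 and 173 in control discs, adjusted p 0.294). At that p, 1 haemocyte gene was lower (He, adjusted p 0.327), and 0 fat body or trachea genes differed. For the tubule, glia and haemocyte counts, the shares over all genes were 7.19% higher and 8.07% lower.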

How the data were processed

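Values deposited by the authors are linear intensities of 18952 probe sets, 1 column for each of 4 Affymetrix Drosophila arrays. Affymetrix Expression Console is named in the submitters' processing notes, and dChip and the Affymetrix operating software in the series design text. Which algorithm summarised the probes is not given here. Trimmed means of the deposited intensities lie near 500.01 in all 4 columns, which points to scaling before deposit, and median intensities were 81.1 and 101 (Yki) and 79.4 and 97.1 (control). No column was left unused (0).

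Control probe sets (183) were removed. limma 3.58.1 in R 4.3.3 (lmFit, eBayes) was run on log2(intensity + 16) over 18769 probe sets with group as the only term, and adjusted p-values are Benjamini-Hochberg over all of them. Residual degrees of freedom were 2, to which moderation added 3.03. The pipeline was tested on simulated data. With 2 arrays a group, exact permutation reaches no p below 0.333 and was not used. Gene names came from the platform annotation, and all 31 members matched RefSeq's table of the Release 6 plus ISO1 MT assembly, used only for names and neighbours. Of the 31 probe sets that stood for a gene, 6 are of the Affymetrix type whose probes can match several transcripts. The second probe set for Vha16-1 is also of that type.

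The members, gene lists and tests were chosen with earlier results of these data known. Array values are given for the brightest gene of each subunit and for paralogs with a mean of at least 100, and from each other list the 3 genes with the smallest p could be named. Alternatives were pseudocounts, scaling, a filter on dim probe sets, moderation, the replicate block, each array left out, and other ways to stand for a gene.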

Additional observations from a re-analysis of the deposited data

How the results depend on the processing

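No V-ATPase gene passed an adjusted p of 0.05 in limma under any of 13 other settings (0 in each, smallest adjusted p 0.288, with a pseudocount of 64). At an unadjusted p under 0.05 the count was 0 as reported, 2 with a pseudocount of 64 (VhaAC39-1 and Vha16-1) and 1 with trended and robust moderation (VhaAC39-1). With 1 array left out it ranged from 0 to 1 (Vha36-3 without Yki replicate 1, Vha36-2 without Yki replicate 2). The replicate numbers are not said to mark a shared batch, and deviations of same-numbered arrays from their group means correlated at 0.039. With the replicate block the counts were 0 and 0 and the median of the brightest genes was 0.26. That median ranged from 0.19 to 0.37 with 1 array left out, and was lowest, 0.17, after quantile normalization. The median of the other genes, 0.18 as reported, ranged from -0.046 (without Yki replicate 2) to 0.37 (without Yki replicate 1). Regrouping by an intensity of 500, added after the data were seen, gave 0.26 for bright and 0.07 for dim genes, and leaving out Vha68-3 gave 0.26. The 17 bright genes were all above 0 in every setting that kept all 4 arrays. Of 247 single-gene values over 19 genes, 12 changed sign. Vha68-3, at 0.0014 as reported, was -0.0073 with a pseudocount of 1 and -0.033 with array medians subtracted. The other sign changes came with 1 array left out, where ranges were -0.48 to 0.49 for Vha68-3, -0.046 to 0.43 for Vha100-2, -0.049 to 0.47 for Vha26, -0.041 to 0.41 for Vha36-1, -0.076 to 0.34 for VhaM9.7-b, -0.28 to 0.37 for VhaM9.7-c and -0.098 to 0.34 for VhaPPA1-1. The 11 bright genes that kept their sign ranged from 0.0036 (VhaSFD) to 0.87 (VhaM9.7-a) with 1 array left out. The cause was not tested.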
